A study of Mus musculus with 12 samples.

Results

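Transcripts of 9 S100a genes were measured in mouse kidney cortex on day 7 after unilateral ureteral obstruction (UUO), an operation that closes 1 ureter so that its kidney fills with urine and scars. The genes were S100a1, S100a4, S100a6, S100a8, S100a9, S100a10, S100a11, S100a13 and S100a16, chosen by symbol. All 9 are among the 23183 symbols listed for every library, and all 9 passed the filter on low values that 13243 symbols passed. The mice were male C57BL/6 (C57BL/6N in the study's methods), 6 to 7 weeks old, and either Acot12+/+ (WT) or Acot12-/- (KO). Acot12 encodes an acyl-CoA thioesterase, and the KO mice carry a mutant allele made with an RNA-guided endonuclease (RGEN) in every tissue, so the loss is not limited to the kidney. From each genotype the obstructed kidney (UUO) and the untreated contralateral kidney (CL) gave 3 libraries each, 12 in all. The CL kidney of an operated mouse does the work of both kidneys and is not the same as a kidney of an unoperated mouse.

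Most S100 proteins are small EF-hand proteins that pair up, bind calcium and then expose a surface that holds a partner protein. S100A8 and S100A9 join into calprotectin, which neutrophils and monocytes carry in large amounts and release, and which binds TLR4 and the receptor RAGE (Ager). S100A4, also called fibroblast-specific protein 1, binds non-muscle myosin (Myh9) and is made by fibroblasts and by macrophages. S100A6 binds Cacybp, S100A11 binds annexin A1 (Anxa1), and S100A10, which has lost calcium binding, holds annexin A2 (Anxa2) and Ahnak at the cell membrane. S100A1 is best known from heart muscle, where it acts on calcium release, and S100A13 takes part in the export of proteins without a signal peptide.

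All 9 genes lie on mouse chromosome 3 (positions from GENCODE vM21, build GRCm38). S100a1 (chr3:90511034-90514392, minus strand), S100a13 (chr3:90514435-90524581, plus), S100a16 (chr3:90537254-90543151, plus), S100a4 (chr3:90603771-90606045, plus), S100a6 (chr3:90612882-90624181, plus), S100a8 (chr3:90668978-90670035, plus) and S100a9 (chr3:90692632-90695721, minus) form a block of 184.688 kb. The 9 genes of this block that were tested all had S100a symbols. S100a11 (chr3:93520488-93526287, plus) and S100a10 (chr3:93555080-93564643, plus) lie 2824.77 kb further on. Between the block and this pair 8 genes were tested, Sprr2a3, Sprr2f, Sprr2g, Sprr1a, Ivl, Smcp, Tchh and Tchhl1, most of which encode proteins of the surface layer of squamous epithelia. Of these 8, 5 were higher and 1 lower after UUO in WT kidneys, and 5 were higher and 3 lower in KO kidneys, at an adjusted p under 0.05. Of all genes tested, 23.6% were higher and 23.9% lower in WT kidneys at this threshold, and 26.6% and 27.2% in KO kidneys.

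S100a1 and S100a13 point away from each other, and only 42 bases separate their annotated 5′ ends. These bases are shown because S100a1 fell with UUO in both genotypes, while S100a13 was not called in WT and rose in KO kidneys. They read as follows on the plus strand at chr3:90514393-90514434.
gap between S100a1 and S100a13: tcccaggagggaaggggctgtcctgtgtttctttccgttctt

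The stretches before the RefSeq starts (build GRCm38.p6) of S100a11, S100a4 and S100a9 are printed as examples, and each holds a motif match. S100a11 and S100a4 rose in both genotypes and S100a9 rose in KO kidneys. Other members that rose are not printed, among them S100a6, which held no match. Capitals mark matches, on either strand, to 3 motifs: the AP-1 letters TGANTCA, the C/EBP letters TTGCNNAA and the TATA box letters TATAAA. The S100a11 stretch is chr3:93520246-93520487 (plus), that of S100a4 chr3:90603520-90603769 (plus) and that of S100a9 chr3:90695722-90695971 (minus).
S100a11: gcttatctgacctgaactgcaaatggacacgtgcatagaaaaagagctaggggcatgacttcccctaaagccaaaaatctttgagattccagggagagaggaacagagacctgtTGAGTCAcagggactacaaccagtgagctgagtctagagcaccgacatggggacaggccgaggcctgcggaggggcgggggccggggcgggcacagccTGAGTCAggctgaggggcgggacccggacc
S100a4: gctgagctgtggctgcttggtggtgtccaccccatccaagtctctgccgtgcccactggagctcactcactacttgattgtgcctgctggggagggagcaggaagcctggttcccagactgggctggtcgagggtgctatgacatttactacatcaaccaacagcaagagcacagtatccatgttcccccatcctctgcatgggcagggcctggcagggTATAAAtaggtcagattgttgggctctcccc
S100a9: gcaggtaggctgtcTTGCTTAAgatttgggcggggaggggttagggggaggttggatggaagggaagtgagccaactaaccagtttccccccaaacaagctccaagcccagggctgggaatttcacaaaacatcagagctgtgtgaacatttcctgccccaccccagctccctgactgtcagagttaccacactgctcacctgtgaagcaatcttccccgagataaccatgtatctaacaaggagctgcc
In 250 bases before the start, S100a11 held 2 AP-1 matches, which begin 136 and 38 bases before it, S100a4 held a TATA box match at 31 bases, and S100a9 held a C/EBP match at 236 bases. S100a8, whose stretch is not printed, held a TATA box match at 30 bases, and the second of the 2 starts of S100a16 held an AP-1 match at 192 bases. None of the 3 motifs was found in these windows of S100a1, S100a13 or S100a6, and S100a10 had no entry in the promoter table. Of 32851 promoters of the same length, 6.749% held the AP-1 letters, 9.564% the C/EBP letters and 12.368% the TATA box letters on either strand. The motifs do not overlap each other in the stretches shown.

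The values were taken as FPKM, though no unit is stated. FPKM divide the fragments of a gene by its transcript length and by library depth, so that levels can be compared between genes. Depth, read from the steps between low values, was about 11100000 to 14600000 fragments in CL and 16600000 to 20600000 in UUO libraries. Any scaling between libraries before deposit would be part of these figures, so they need not be the sequenced depth. This was not tested. Acot12 itself had 52.7 to 78.1 FPKM in WT CL, 9.98 to 21.2 in WT UUO, 6.80 to 9.15 in KO CL and 1.80 to 3.86 in KO UUO libraries, so every KO library lay below every WT library of the same side. The tissue label is cortex, while the study's methods for sequencing name the CL or UUO kidneys. Proximal tubule markers summed to 3483 to 6376 FPKM in CL libraries. This does not tell cortex from whole kidney, since both hold proximal tubule. A few libraries stood apart and are named beside the results they touch. KO CL replicate 2 lay apart on the second principal component (9.46% of the variance). KO CL replicate 1 was the lowest of the 6 CL libraries for 6 of the 9 S100a genes. WT CL replicate 2 was the highest of them for 6 of the 9. Markers of urothelium, the lining of the renal pelvis and ureter (Upk1a, Upk1b, Upk2, Upk3a, Krt5, Krt15 and Psca), summed to 74.8 FPKM in WT CL replicate 2, beside 7.22 and 6.77 in replicates 1 and 3, and to 18.3 in WT UUO replicate 3, beside 146 and 195 in replicates 1 and 2.

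Together the 9 genes had 2298 ± 495 FPKM (SD, n = 3) in WT CL, 3726 ± 392 in WT UUO, 1925 ± 524 in KO CL and 3902 ± 452 in KO UUO kidneys. CL kidneys of both genotypes were led by S100a1, then S100a11 and S100a10, and neighbours among these 3 overlapped in range. UUO kidneys of both genotypes were led by S100a11, and every UUO library had more S100a11 than any other S100a transcript. S100a11 made up 24.9 ± 2.35% (SD, n = 3) of the summed FPKM in WT CL and 50.3 ± 1.90% in WT UUO kidneys, with 29.9 ± 2.74% and 47.4 ± 1.38% in KO kidneys. The share of S100a1 was 37.8 ± 2.01% in WT CL and 11.5 ± 0.768% in WT UUO, with 42.8 ± 4.36% and 11.4 ± 2.45% in KO kidneys. S100a6 took 3.61 ± 1.92% in WT CL, 12.2 ± 1.66% in WT UUO, 1.33 ± 0.565% in KO CL and 14.9 ± 2.99% in KO UUO. S100a8 and S100a9 were the lowest of the 9 in all 4 group means, and their largest mean share was 1.18%, that of S100a9 in KO UUO. The ranges of S100a8 and S100a9 overlapped in every group.

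**Figure D1:**
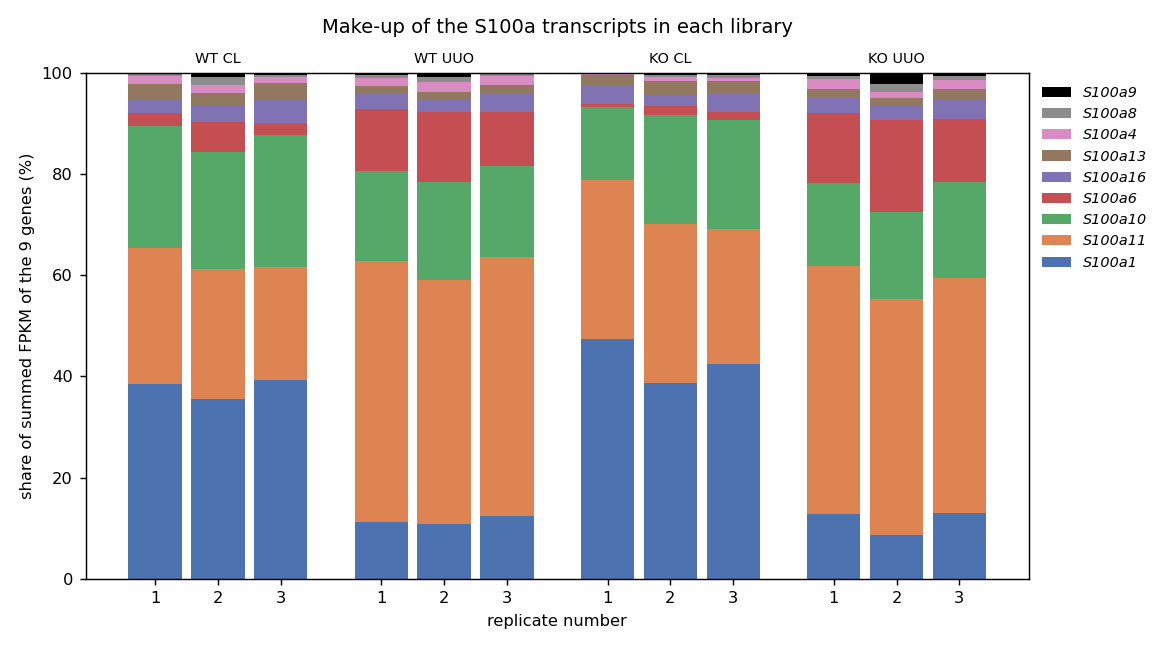
Stacked bars give the percent of the summed FPKM of the 9 S100a genes that each gene takes, for each of the 12 libraries (x axis: replicate number within the 4 groups). The S100a1 segment holds 35.5 to 47.4% among the 6 CL libraries and 8.60 to 12.9% in the 6 UUO libraries, where the S100a11 segment grows from 22.3 to 31.5% up to 46.5 to 51.5%.

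The first question was which S100a genes change with obstruction. In WT kidneys S100a6, S100a11 and S100a4 rose and S100a1 fell, and in KO kidneys the 8 genes other than S100a1 rose and S100a1 fell. A gene was called changed at an adjusted p under 0.05 from limma on log2(FPKM + 1), with p adjusted over all genes tested. On this count 4 of 9 S100a genes were called in WT kidneys, beside 47.5% of all genes tested (23.6% higher and 23.9% lower), so this count is near the share over all genes. All 9 were called in KO kidneys, beside 53.7% of all genes (26.6% higher and 27.2% lower). Without KO CL replicate 1, the lowest CL library for most of them, 6 were called, beside 50.3% of all genes. In a fit over both genotypes, with 6 UUO and 6 CL libraries, 7 were higher and 1 lower, beside 31.3% of all genes higher and 32.1% lower (63.4% in either direction). The median log2 fold change of the 9 was 0.60 in WT and 1.71 in KO kidneys, where the median of all genes was 0.01 and -0.01. Cortex is a mixture of cells, so more cells of a type and more RNA per cell cannot be told apart in any of these values.

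S100a6, also called calcyclin, changed most. Its FPKM were 63.5, 160 and 41.2 in WT CL replicates 1 to 3 and 455, 568 and 349 in WT UUO. In KO kidneys they were 11.2, 29.2 and 38.2 in CL and 469, 778 and 507 in UUO. All UUO libraries lay above all CL libraries in both genotypes, and the highest CL value was in the replicate with the high urothelial markers. The mean rose 5.18-fold in WT kidneys (log2 fold change 2.56, SE 0.49, adjusted p = 0.00117) and 22.3-fold in KO kidneys (4.55, SE 0.49, adjusted p = 1.61e-05). Without WT CL replicate 2 and WT UUO replicate 3, which differ from their groups in urothelial markers, the WT value of S100a6 was 3.29 (adjusted p = 0.000888), and without WT CL replicate 2 alone it was 3.11 (adjusted p = 0.00036).

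S100a11 was the most abundant S100a transcript after UUO. It had 639, 704 and 395 FPKM in WT CL and 1936, 1974 and 1702 in WT UUO libraries. The KO libraries had 507, 514 and 676 in CL and 1664, 1996 and 1877 in UUO. The genotypes overlapped on both sides, and the spread between UUO replicates was small, with a ratio of highest to lowest of 1.16 in WT and 1.20 in KO kidneys. The rise was 3.23-fold in the mean in WT (log2 fold change 1.73, SE 0.23, adjusted p = 9.67e-05) and 3.26-fold in KO kidneys (1.71, SE 0.23, adjusted p = 6.19e-05). Of stretches of 75 bases in S100a11 exons, 37.8% are also found in Gm12854 or Gm7665, neither of which is a symbol in these data, so reads of these copies could be counted in either place.

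S100a4 had 36.6, 43.2 and 21.3 FPKM in WT CL and 63.4, 80.6 and 56.4 in WT UUO kidneys. It had 4.72, 10.8 and 17.1 in KO CL and 63.7, 57.6 and 76.2 in KO UUO kidneys. The UUO levels of the genotypes overlapped, while every KO CL library lay below every WT CL library. S100a4 rose in both genotypes, with log2 values of 1.01 (SE 0.36, adjusted p = 0.038) in WT and 2.63 (SE 0.36, adjusted p = 8.70e-05) in KO kidneys. The call in WT kidneys was lost without any one of replicates 1 and 3 of CL or 1, 2 and 3 of UUO, with adjusted p from 0.0524 to 0.158, and with no filter on low values (adjusted p = 0.0611). The exons of S100a4 share 302 bases with Gm42674 on the same strand, a gene that is not a symbol in these data.

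S100a8 and S100a9, the 2 chains of calprotectin, varied widely between replicates. S100a8 had 9.19, 44.5 and 6.46 FPKM in WT CL and 20.3, 38.5 and 13.3 in WT UUO libraries. In KO kidneys it had 0.805, 7.995 and 12.8 in CL and 22.1, 61.8 and 24.7 in UUO libraries. CL and UUO overlapped in WT and did not in KO kidneys. S100a8 was called in KO kidneys, at 2.46 on the log2 scale (SE 0.79, adjusted p = 0.0196) beside 0.60 (SE 0.79, adjusted p = 0.555) in WT kidneys. This call was lost without KO CL replicate 1 (1.59, adjusted p = 0.0866) or KO UUO replicate 2 (2.01, adjusted p = 0.0837), and the value of 0.805 FPKM stands for about 7.53 fragments. The WT value of S100a8 rested on single libraries too: it was 1.39 without WT CL replicate 2, 1.73 without WT CL replicate 2 and WT UUO replicate 3, 0.94 without WT UUO replicate 3 alone, and 0.32, 0.0912 and 0.21 without WT CL replicate 1, CL replicate 3 and UUO replicate 2, and it was called in none of these fits (adjusted p from 0.125 to 0.943).

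S100a9 had 6.35, 20.7 and 9.09 FPKM in WT CL, 14.7, 34.3 and 9.02 in WT UUO, 1.38, 5.88 and 10.95 in KO CL and 19.5, 96.6 and 29.0 in KO UUO libraries. Its pattern followed S100a8: the same libraries were highest and lowest on each side, WT replicate 2 and KO replicate 1 among CL and KO replicate 2 and WT replicate 3 among UUO libraries. The log2 fold change with UUO was 2.75 (SE 0.70, adjusted p = 0.00539) in KO and 0.60 (SE 0.70, adjusted p = 0.506) in WT kidneys. The WT value was 1.04 without WT CL replicate 2, 1.01 without WT UUO replicate 3, 1.45 without both, 0.26 without WT CL replicate 1 and 0.0985 without WT UUO replicate 2, and was called in none of these fits (adjusted p from 0.187 to 0.928). The ratio of S100a8 to S100a9 was 1.43 ± 0.717 (SD, n = 3) in WT CL, 1.33 ± 0.182 in WT UUO, 1.04 ± 0.404 in KO CL and 0.876 ± 0.249 in KO UUO, with overlapping ranges. That the call fell in a single genotype does not show a difference between genotypes, which is tested further on.

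S100a10 had 572, 639 and 459 FPKM in WT CL, 674, 793 and 599 in WT UUO, 232, 351 and 550 in KO CL and 562, 728 and 768 in KO UUO kidneys. Its ranges overlapped in WT kidneys and were apart in KO kidneys, where it rose 1.82-fold in the mean (log2 fold change 0.94, SE 0.28, adjusted p = 0.0137). The value in WT kidneys was 0.31 (SE 0.28, adjusted p = 0.384). Without KO CL replicate 1, its lowest library, the KO value was 0.63 and the call was lost (adjusted p = 0.0545), as it was at an unchanged value with only the KO groups fitted (adjusted p = 0.0619). S100a16, a widely expressed member, had 66.6, 91.1 and 82.2 FPKM in WT CL and 112, 109 and 130 in WT UUO libraries. The KO libraries had 56.5, 35.0 and 95.6 in CL and 105, 121 and 150 in UUO. S100a16 in UUO was above CL in every library of both genotypes, but only the KO difference passed (log2 fold change 1.10, SE 0.29, adjusted p = 0.00731), beside 0.55 (SE 0.29, adjusted p = 0.141) in WT kidneys. With only the WT CL and WT UUO groups fitted, the same WT value of S100a16 was called (adjusted p = 0.00901).

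S100a1 was the only one of the 9 that fell. It had 914, 976 and 696 FPKM in WT CL and 420, 448 and 410 in WT UUO libraries, and 764, 632 and 1072 in KO CL and 433, 367 and 523 in KO UUO libraries. No UUO library reached a CL library of its genotype. The log2 fold change was -1.001 (SE 0.22, adjusted p = 0.00308) in WT and -0.88 (SE 0.22, adjusted p = 0.00539) in KO kidneys. With all libraries scaled to the same total FPKM, which moved the median of all genes by 0.62 in WT and 0.44 in KO kidneys, the S100a1 values were -0.27 (adjusted p = 0.239) and -0.33 (adjusted p = 0.156), so its fall is a fall relative to the median gene.

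S100a13, its neighbour across the 42 bases, had 69.5, 69.0 and 57.7 FPKM in WT CL and 59.7, 58.1 and 50.9 in WT UUO kidneys. In KO kidneys it had 34.2, 48.2 and 58.7 in CL and 58.8, 62.2 and 87.0 in UUO. The ranges of CL and UUO overlapped in WT kidneys, with a log2 difference of -0.21 (SE 0.21, adjusted p = 0.426), and did not overlap in KO kidneys, with one of 0.56 (SE 0.21, adjusted p = 0.0386). The latter call was lost without KO CL replicate 1 (0.35, adjusted p = 0.155), UUO replicate 2 (0.63, adjusted p = 0.0514) or UUO replicate 3 (0.39, adjusted p = 0.159), and at an unchanged value with only the KO groups fitted (adjusted p = 0.135). With equal total FPKM the WT value turned to 0.51 (adjusted p = 0.0383). The ratio of S100a1 to S100a13, chosen after the values were seen, was 13.1 ± 1.05 (SD, n = 3) in WT CL, 7.60 ± 0.515 in WT UUO, 17.9 ± 4.60 in KO CL and 6.42 ± 0.812 in KO UUO kidneys, and such a ratio does not depend on the scaling of a library.

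**Figure D2:**
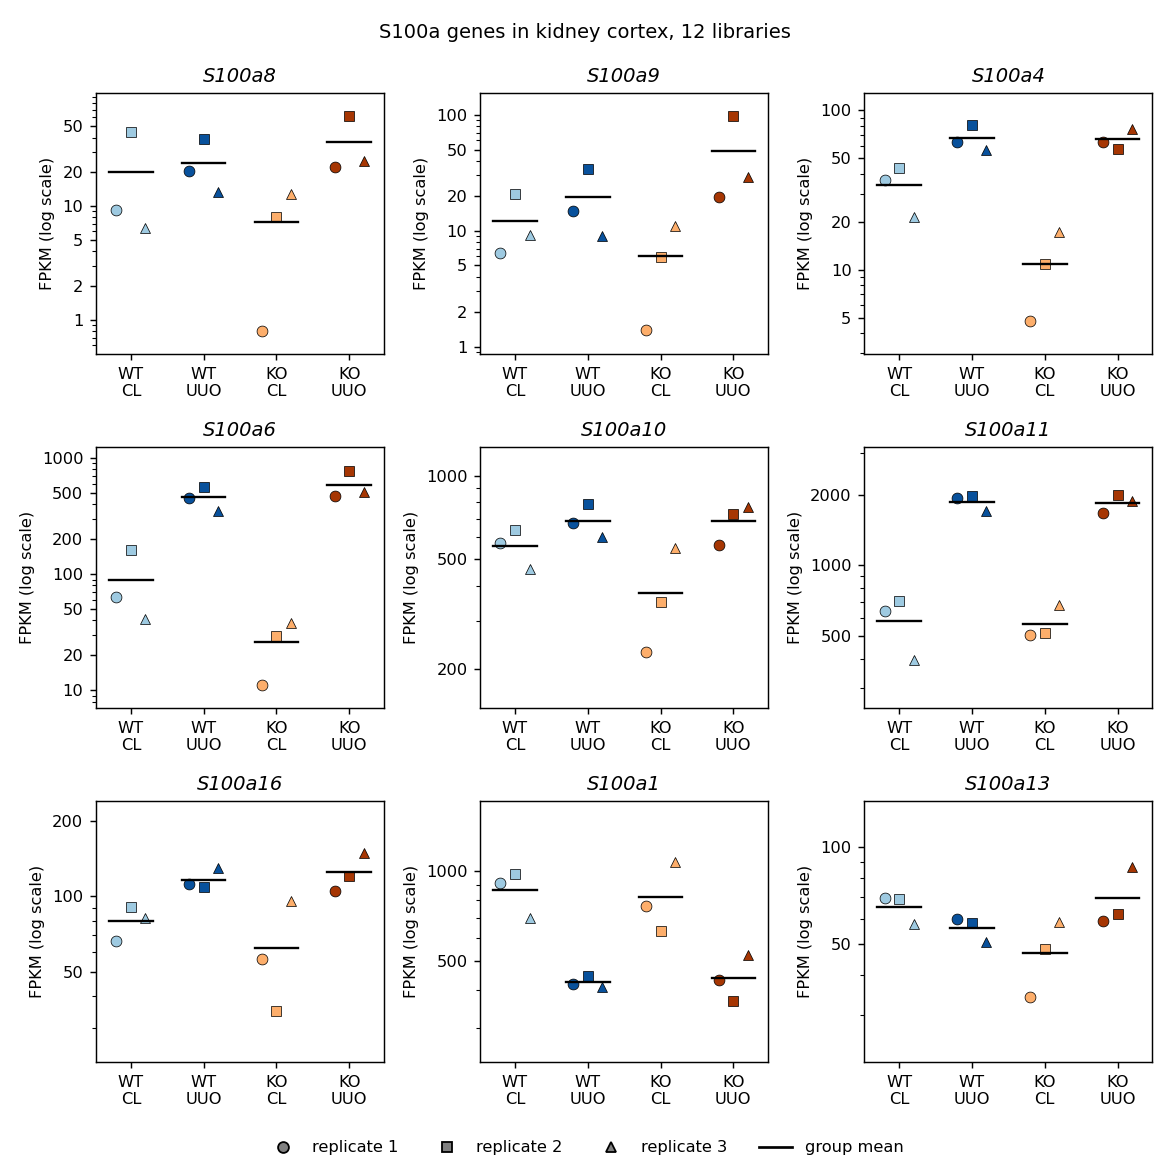
FPKM on log axes (y axis) for each S100a gene in the 4 groups (x axis: genotype and kidney), with 1 point for each of 3 libraries, its shape giving the replicate number and the line the group mean. S100a6 and S100a11 are apart between CL and UUO in both genotypes, S100a1 is lower in UUO, and S100a8 and S100a9 spread widely within groups.

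The second question was whether loss of Acot12 changes S100a levels. In UUO kidneys no member was called (beside 0.0151% of all genes), and none had an unadjusted p under 0.05 in limma. The log2 differences, KO minus WT, ran from -0.02 for S100a11 (95% interval -0.51 to 0.47) to 1.14 for S100a9 (-0.38 to 2.66), so for S100a11 the interval is narrow and for S100a9 it is wide. For S100a6 the difference was 0.34 (-0.72 to 1.41) and for S100a4 -0.01 (-0.81 to 0.78).

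In CL kidneys all 9 differences were below 0, where the median of all genes was 0.0085. Only S100a4 was called, lower in KO CL at -1.64 on the log2 scale (SE 0.36, adjusted p = 0.0266), beside 4.48% of all genes called and 3.36% called lower. S100a6 had a difference of the same size that was not called, -1.64 (SE 0.49, adjusted p = 0.0865). Also not called were S100a8 at -1.32 (SE 0.79, adjusted p = 0.447), S100a9 at -1.01 (SE 0.70, adjusted p = 0.526) and S100a10 at -0.64 (SE 0.28, adjusted p = 0.265). S100a4 and S100a6 were the only members whose 3 KO CL libraries all lay below the 3 WT CL libraries. The share of all genes with such a separation was not counted, so this is a description. At an unadjusted p under 0.05 in limma, 4 of the 9 differed, beside 10.3% of all genes that were lower in KO CL. S100a11 (-0.0046, 95% interval -0.50 to 0.49) and S100a1 (-0.09, -0.57 to 0.40) had the smallest differences. The S100a4 call was lost without WT CL replicate 1 (adjusted p = 0.103) or 2 (0.0996) or without KO CL replicate 1 (0.0755), and with only the CL groups fitted (0.148).

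Cell markers moved with these CL values. Summed FPKM of 14 macrophage and monocyte markers were 194 to 220 in WT CL and 60.4 to 136 in KO CL libraries, and 5 of 13 tested were called lower (C1qa, C1qc, Cd68, Ly6c2 and Lyz2). Fibroblast markers summed to 226 to 290 and 88.9 to 170, with 4 of 12 called lower (Col3a1, Fn1, Pdgfrb and Tagln), and endothelial markers to 142 to 235 and 48.4 to 75.3, with 7 of 8 called lower. T cell markers summed to 9.70 to 15.5 and 2.76 to 4.58, with 5 of 7 called lower. Proximal tubule markers went the other way, with 3483 to 4152 FPKM in WT CL and 4880 to 6376 in KO CL libraries and none of 10 called. Of all genes tested, 3.36% were called lower in KO CL kidneys. With only the CL groups fitted, 1 gene of 13243 was called, so at most 1 of these marker calls holds in that fit. The part of these cell types in the lower S100a4 of KO CL kidneys was not tested.

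Whether the change with UUO differed between the genotypes was tested as the interaction. None of the 9 was called, beside 0.106% of all genes, and 4 had an unadjusted p under 0.05 in limma, beside 10.5% of all genes. The difference of log2 fold changes, KO minus WT, was 1.63 for S100a4 (SE 0.51, adjusted p = 0.227), 1.99 for S100a6 (SE 0.69, adjusted p = 0.287), 2.16 for S100a9 (SE 0.99, adjusted p = 0.473) and 0.77 for S100a13 (SE 0.30, adjusted p = 0.351). S100a11 was at -0.02 (95% interval -0.71 to 0.68) and S100a1 at 0.12 (-0.56 to 0.81). The interaction, the contrast in CL kidneys and the change with UUO in KO kidneys share the 3 KO CL libraries, so their values are not separate evidence of each other.

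**Figure D3:**
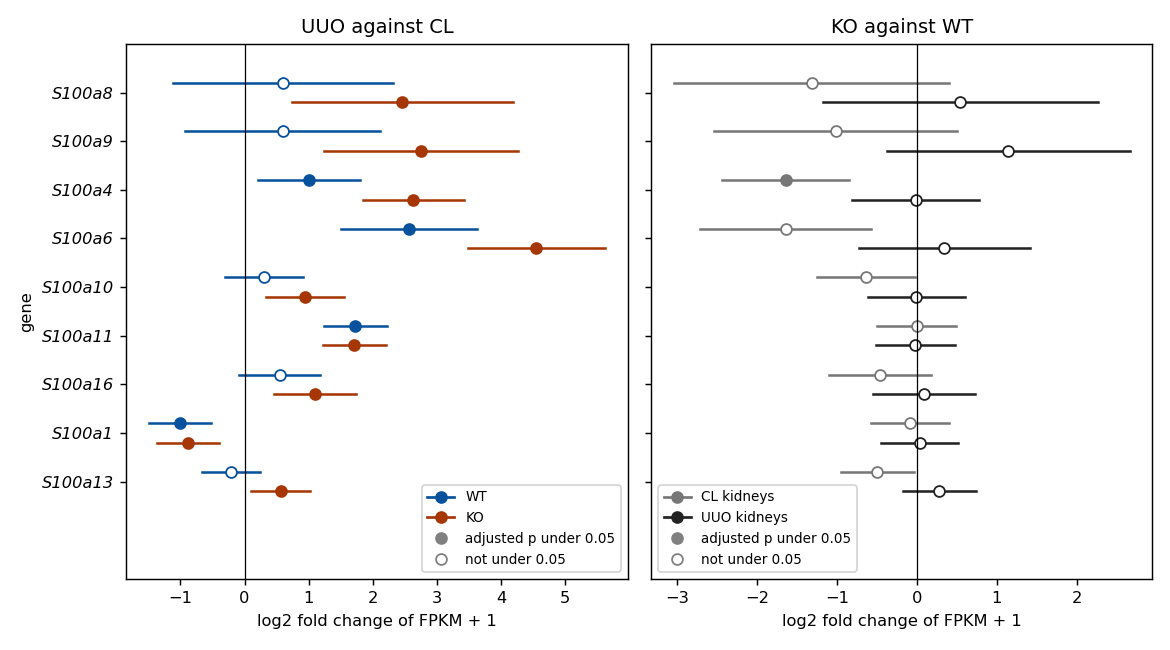
Points give the limma log2 fold change of FPKM + 1 for each gene (y axis) and bars its 95% interval, on the left for UUO against CL in each genotype and on the right for KO against WT in CL and in UUO kidneys; filled points have an adjusted p under 0.05. On the left all points except S100a1 in both genotypes and S100a13 in WT lie right of 0, and on the right the only filled point is S100a4 in CL kidneys.

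Markers of other cells also moved with UUO, and their part in the S100a values was not tested. Macrophage and monocyte markers rose from sums of 194 to 220 FPKM in WT CL to 746 to 892 in WT UUO, and from 60.4 to 136 to sums of 801 to 1080 in KO kidneys, with 11 and 13 of 13 called higher. Of all genes tested, 23.6% were called higher in WT and 26.6% in KO kidneys. S100a4 followed the same order of groups, with the lowest values in KO CL and overlapping values in the UUO groups. Neutrophil markers were at a low level: 15 were listed and 3 passed the filter. Sums of the list were 1.77 to 5.61 FPKM in WT CL, 5.03 to 7.14 in WT UUO, 0.486 to 1.93 in KO CL and 10.7 to 24.2 in KO UUO libraries. Of the 15 listed, Elane is at 0 in all 12 libraries, Mpo reached 0.083 FPKM at most, and Ly6g is not among the symbols. The library with the highest S100a8 and S100a9, KO UUO replicate 2, also had the highest neutrophil sum. Csf3r, the receptor of the cytokine that drives neutrophil growth, rose in both genotypes, and Retnlg, a neutrophil product, had 1.38, 5.98 and 2.62 FPKM in KO UUO beside 0.235, 1.03 and 0.343 in WT UUO libraries. This difference of Retnlg was not called (log2 1.39, SE 0.40, adjusted p = 0.9999). Those of Csf3r and Il1r2, the other tested neutrophil markers, were 0.28 each and not called. With UUO, Retnlg was called higher in KO kidneys (1.23, SE 0.40, adjusted p = 0.0222) and not called in WT kidneys (-0.63, SE 0.40, adjusted p = 0.221). Called higher with UUO were 2 of the 3 tested neutrophil markers in WT (Csf3r and Il1r2) and 3 of 3 in KO kidneys. The shares of all genes called higher were 23.6% and 26.6%.

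Urothelial markers, which mark the pelvis rather than the cortex, had sums of 6.77 to 74.8 FPKM in WT CL, 18.3 to 195 in WT UUO, 1.54 to 19.4 in KO CL and 133 to 202 in KO UUO libraries. The lowest sum of all was in KO CL replicate 1 and the highest in KO UUO replicate 2, the same libraries that were lowest and highest for S100a6, S100a8 and S100a9. KO CL replicate 1 was also lowest for the neutrophil, macrophage, T cell, fibroblast and endothelial sums, and KO UUO replicate 2 highest for the neutrophil and injured tubule sums. KO CL replicate 2 had a urothelial sum of 19.4, above WT CL replicate 1 (7.22) and KO CL replicate 3 (9.38), but less S100a6 (29.2 FPKM beside 63.5 and 38.2). Of the 7 markers, 2 were called higher with UUO in WT and 7 in KO kidneys, beside 23.6% and 26.6% of all genes tested. Injured tubule markers were called higher for 10 of 10 in both genotypes. Their sums were 1080 to 3126 FPKM in WT CL, 15879 to 17569 in WT UUO, 1834 to 5083 in KO CL and 17248 to 19014 in KO UUO libraries.

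**Figure D4:**
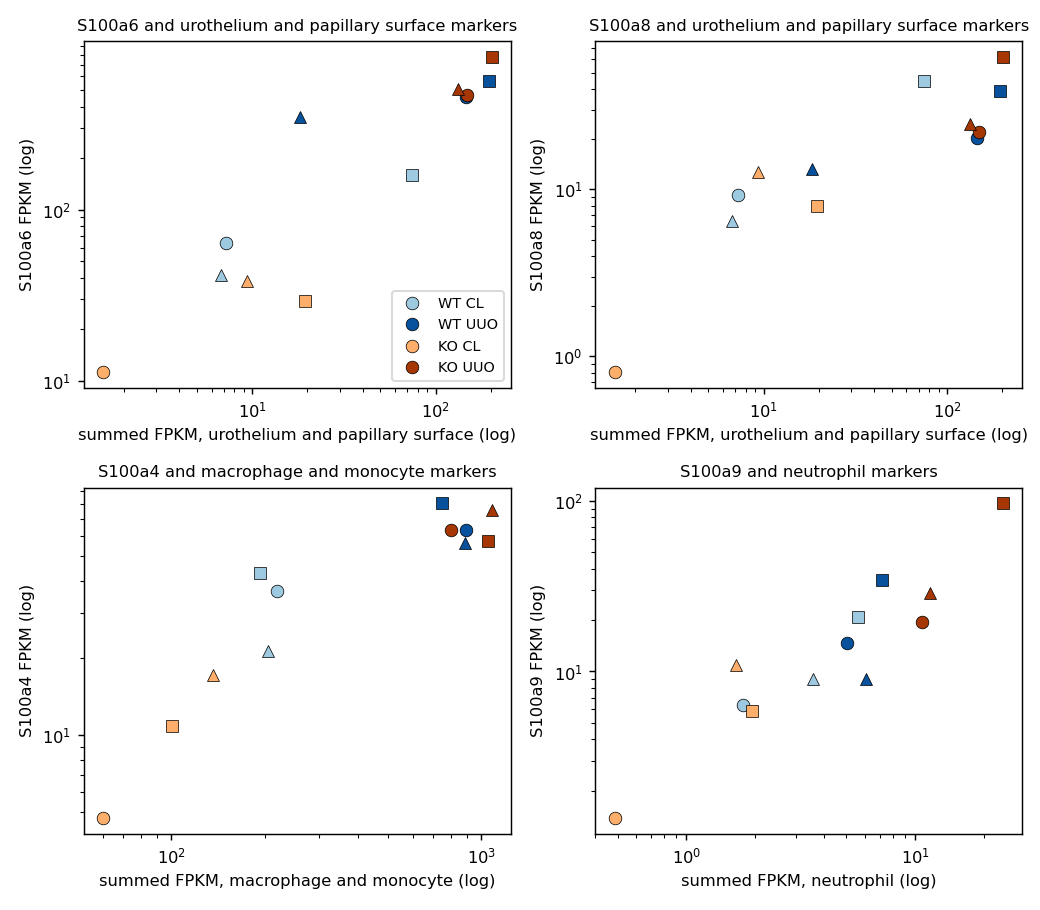
Each panel plots the FPKM of an S100a gene (y axis, log) against the summed FPKM of a list of cell markers (x axis, log) in the 12 libraries, with colour for group and shape for replicate number as in the plot of FPKM by library. KO CL replicate 1 is lowest on both axes of every panel, and WT CL replicate 2 has 74.8 FPKM of urothelial markers beside 160 FPKM of S100a6.

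The partners of S100 proteins were read from a list of 9 genes. Called higher with UUO in WT kidneys were 7 of 9 (Ahnak, Anxa1, Anxa2, Anxa5, Anxa6, Ezr and Myh9), and 6 of 9 in KO kidneys, where Ezr had 0.26 (SE 0.16, adjusted p = 0.202). Of all genes tested, 23.6% were called higher in WT and 26.6% in KO kidneys. Cacybp, the partner of S100A6, was called lower in both, with 47.4 to 48.8 FPKM in WT CL and 30.3 to 33.8 in WT UUO libraries. Anxa11 was not called in either genotype. Anxa2 had 67.8, 71.1 and 56.5 FPKM in WT CL and 367, 406 and 373 in WT UUO kidneys, and 28.2, 34.2 and 48.0 in KO CL and 310, 388 and 328 in KO UUO kidneys. Its rise (log2 fold change 2.54, SE 0.19, adjusted p = 3.67e-06 in WT and 3.21, SE 0.19, adjusted p = 3.85e-07 in KO) had a larger value than that of its partner S100a10. The ratio of S100a10 to Anxa2 was 8.52 ± 0.439 (SD, n = 3) in WT CL and 1.80 ± 0.177 in WT UUO, with 9.96 ± 1.63 and 2.01 ± 0.288 in KO kidneys, without overlap between CL and UUO. Anxa2 was also the partner gene called lower in KO CL kidneys (-0.83, SE 0.19, adjusted p = 0.0324). Of all genes tested, 3.36% were called lower there, and with only the CL groups fitted 1 gene of 13243 was called.

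Of 8 receptors and adaptors of S100A8 and S100A9, 5 were called higher and 2 lower with UUO in each genotype. Of all genes tested, 23.6% were called higher and 23.9% lower in WT kidneys, and 26.6% and 27.2% in KO kidneys. The higher ones were Ager, Tlr4, its coreceptor Cd14, its adaptor Myd88 and Cd33, and the lower ones were Bsg and Cd36, both also found on tubule cells. Cd14 had 5.32 to 8.50 FPKM in WT CL, 54.2 to 58.0 in WT UUO, 2.48 to 4.91 in KO CL and 45.1 to 57.2 in KO UUO libraries. Tlr4 stayed at a low level, 2.11 to 2.62 FPKM in WT UUO and 2.29 to 2.72 in KO UUO libraries, and Ager reached 4.55 FPKM at most. Ly96, which TLR4 needs to bind its ligands, had log2 fold changes of 0.05 (SE 0.24, adjusted p = 0.889) and -0.11 (SE 0.24, adjusted p = 0.73). None of the 8 was called between the genotypes on either side.

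Of 9 other S100 genes listed, 8 are among the symbols and 4 passed the filter. S100g, calbindin-D9k, which carries calcium through distal tubule cells, had 13110, 16132 and 12994 FPKM in WT CL and 257, 296 and 332 in WT UUO libraries, and 6038, 10739 and 11804 in KO CL and 1083, 564 and 750 in KO UUO libraries. In CL kidneys it exceeded the sum of the 9 in every library, and in UUO kidneys it was below that sum in every library. Its log2 fold change was -5.57 (SE 0.29, adjusted p = 3.76e-07) in WT and -3.57 (SE 0.29, adjusted p = 2.47e-06) in KO kidneys, with an interaction of 2.01 (SE 0.41, adjusted p = 0.0798). S100a14, an epithelial member, was called higher in both genotypes, with 2.15 to 8.19 FPKM in WT CL, 6.52 to 23.2 in WT UUO, 3.08 to 6.13 in KO CL and 12.8 to 34.8 in KO UUO libraries. S100a3 was also called higher in both, at no more than 2.39 FPKM.

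The genes with the most similar pattern were found by the root-mean-square difference of log2(FPKM + 1), each gene centred on its mean, over the 12 libraries and all genes tested. The points share libraries and depth, so the order is a description. S100a8 and S100a9 were each other's nearest gene (0.467), followed by Wfdc17 and Fxyd5 for S100a8 and by Il1b, a cytokine of myeloid cells, and Cd72 for S100a9. Nearest to S100a4 were Tyrobp (0.255), a signalling adaptor of myeloid cells, Fxyd5 (0.258) and Lst1 (0.305). S100a6 was nearest to Tmsb10 (0.519), Mgp (0.575) and Cd14 (0.581). S100a11 was nearest to Fndc4 (0.183), Arhgap8 and Ckap4, S100a16 to Dtx2 (0.153), Usf1 and Vps37b, and S100a1 to Cox17 (0.118), Pcbd2 and Thap4. The 3 genes nearest to S100a13 all encode ribosomal proteins, Rps3a1 (0.0849), Rps20 (0.102) and Rpl9 (0.136), and S100a10 had Pycard (0.160), Fam174b (0.166) and the ribosomal protein gene Rpl12 (0.185). Within the 9, the closest pair after S100a10 and S100a13 (0.294) was S100a10 and S100a16 (0.347), and the farthest was S100a1 and S100a6 (2.38).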

How the data were processed

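RNA of kidney cortex was extracted, made into directional libraries and sequenced by the authors, and the reads were trimmed, mapped (the submitters' processing notes name build mm10) and normalized for them. The deposited tables give 1 value for each of 23183 symbols and do not state a unit; they step in multiples that shrink with transcript length. They were therefore taken as FPKM, normalized for transcript length and depth by the authors' provider before the tables were deposited. Whether libraries were also scaled to each other is not stated. WT stands for Acot12+/+ and KO for Acot12-/- mice. Genes with at least 1 FPKM in at least 3 libraries were tested, without 28 genes listed at 0 beside at least 10 FPKM in the same group, which left 13243. limma 3.58.1 in R 4.3.3 was fitted on log2(FPKM + 1) with 4 groups and a variance trend, and p-values were adjusted by Benjamini-Hochberg over the genes tested; a fold change on this scale understates that of low genes. UUO against CL over both genotypes used genotype as an additive term. Changes given as a ratio of means are on the linear FPKM scale. The code was run on simulated data, with a small set of genes changed in the WT UUO group and independent noise. Far more genes were called in the real data, so that run checks the code and not the calls. The labels do not say that replicates come from separate mice, so p-values measure the spread between these libraries, which may be technical. FPKM carry no counts, so depth and fragments are estimates that cover counting only.

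The 9 S100a genes and all gene lists were chosen with earlier results of these data known. Named were the members, every partner and receptor, up to 4 markers per cell list with the highest mean FPKM, and the 3 genes nearest in pattern to each member; other markers are named as called members of their list. Of residual correlations between CL and UUO libraries, those of the same replicate number were 0.134, 0.364 and 0.335 in WT and 0.322, 0.186 and 0.318 in KO kidneys. The value for WT CL replicate 2 with WT UUO replicate 1 was 0.139. Libraries of different genotypes, which share no mouse, reached 0.451 (WT UUO replicate 1 with KO UUO replicate 2). The labels do not give a pairing, and these values do not settle whether the numbers pair kidneys of a mouse. Alternatives were other pseudocounts, filters and scalings, no variance trend, only the groups compared, a replicate block and leaving out libraries; leaving out WT CL replicate 2 together with WT UUO replicate 3 was added after the values were seen. Figures were drawn with matplotlib 3.10.9. Promoters are those of RefSeq.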

Additional observations from a re-analysis of the deposited data

Results flagged for a closer look

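S100a13 moved in opposite directions with UUO in the genotypes when kidneys were compared by replicate number. UUO minus CL on the log2(FPKM + 1) scale was -0.216, -0.243 and -0.178 in WT and 0.764, 0.362 and 0.560 in KO kidneys. The difference was tested as the interaction and was 0.774 (SE 0.30); it did not pass, with an adjusted p of 0.351 in limma and of 0.107 with the replicate block.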

How the results depend on the processing

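The counts of members called with UUO ran from 3 to 6 in WT and from 6 to 9 in KO kidneys over all alternatives. The shares of all genes called ran from 19.9% to 64.8% in WT and from 25.9% to 63.4% in KO kidneys. Over both genotypes the count was 5, beside 22.4% of all genes, when a fold change of at least 2 was also asked for. The count between genotypes in CL kidneys was 1, beside 4.48% of all genes. It fell to 0 with only the groups compared (0.00755% of all genes) and without WT CL replicate 2 and UUO replicate 3 together (1.43%). Leaving out single libraries it ran from 0 to 2. It was 0 without WT CL replicate 1 (1.43% of all genes) or 2 (2.02%) or KO CL replicate 1 (1.53%). It was 2 without KO CL replicate 2 (22.1% of all genes) or 3 (5.19%). With the replicate block no member's call changed. In that fit 4 and 9 members were called with UUO in WT and KO kidneys, beside 51% and 56.2% of all genes. The adjusted p of the interaction was 0.0959 for S100a4, 0.0932 for S100a6, 0.149 for S100a9 and 0.107 for S100a13. Equal total FPKM turned S100a13 in WT UUO to 0.51, the genotype difference in UUO of S100a1 to -0.14 and of S100a16 to -0.0818, that of S100a11 in CL to 0.0099 (0.0055 with median-ratio size factors) and the interaction of S100a1 to -0.0647; it also called S100a10 (1.04) and S100a16 (1.28) in WT and S100a13 (0.81) over both genotypes. Without WT CL replicate 2 and UUO replicate 3 together, the CL difference was 0.00911 for S100a1 and 0.16 for S100a11 and the interactions of S100a1 and S100a11 were -0.00136 and -0.244. Leaving out single libraries, the genotype difference in UUO ran from -0.0958 to 0.159 for S100a1, -0.127 to 0.128 for S100a4, -0.105 to 0.128 for S100a10, -0.0868 to 0.0524 for S100a11 and -0.0451 to 0.208 for S100a16, that in CL from -0.296 to 0.0842 for S100a1 and -0.259 to 0.158 for S100a11, and the interaction from -0.0498 to 0.330 for S100a1 and -0.178 to 0.239 for S100a11. None of these turned values was called apart from that of S100a13, and the cause was not tested. The call of S100a8 over both genotypes (1.53, adjusted p = 0.0362) was lost with no filter on low values and in 8 of the 12 fits without a single library, with adjusted p of up to 0.0889. Depth limits S100a8 and S100a9 in CL kidneys most.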
